A study of Mus musculus with 23 samples.

Results

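Pyruvate made by glycolysis enters the mitochondrion through a carrier and is turned into acetyl-CoA by the pyruvate dehydrogenase complex, the gate between glycolysis and the citrate cycle. Expression of 9 genes of this gate was read in pancreatic stellate cells (PSCs, resident mesenchymal cells of the pancreas that become fibroblasts around tumours) and in pancreatic tumour organoids (tumour cells grown as small structures in gel) after they had grown together. The 9 genes are the pyruvate dehydrogenase kinases Pdk1, Pdk2, Pdk3 and Pdk4, the phosphatases Pdp1 and Pdp2, the catalytic subunit Pdha1, and the carrier subunits Mpc1 and Mpc2. They were chosen by name, with earlier results of these data known, from 35523 genes in all, and the comparisons that chose them are KO against Rosa and PSCs against organoids. For those comparisons the values of the 9 genes are a description without a test, and shares of all genes past a threshold are given as background only.

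The kinases phosphorylate Pdha1 and switch the complex off, and the phosphatases take the phosphate away and switch it on. The 4 kinases are known to answer to different signals. Pdk1 is a target of the hypoxia-inducible factor, and Pdk4 is known to rise in fasting and under PPAR, FOXO and glucocorticoid receptor activity. Mpc1 and Mpc2 form the carrier of the inner mitochondrial membrane together.

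The study sorted mouse co-cultures in Matrigel, a basement membrane extract, into a PSC and an organoid fraction after 3.5 days in medium labelled reduced/control, and measured RNA in 23 libraries. In the PSC fraction 8 libraries came from clones with Egfr, a receptor tyrosine kinase gene, knocked out (KO) and 4 from Egfr wild-type cells labelled Rosa. In the organoid fraction 7 libraries came from organoids grown with KO clones and 4 from organoids grown with Rosa cells. The organoids themselves carry no Egfr label. The KO clones A3 and B4 descend from the PSC line PSC4, and C5 and D4 from PSC5. PSC4 cells (A3, B4 and Rosa) were grown with the organoid lines T12-LOH, T69A and T6-LOH, whereas PSC5 cells (C5, D4 and Rosa) were grown with T6-LOH alone. A culture here means 1 organoid line grown with 1 PSC line, with at most 1 library per fraction. The labels do not say whether its PSC and organoid libraries came from the same well. By this pairing 11 cultures have both fractions, since the culture of T69A with A3 has only its PSC library. Each KO line is a single clone, so an effect of the clone and an effect of the knockout cannot be told apart within 1 clone. Libraries of the same line grown with different organoids are not separate clones, and nothing in the labels says whether cultures were set up on separate days.

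Levels are given in CPM (counts scaled to library size by the trimmed mean of M-values) between samples, and in TPM (abundance corrected also for transcript length) between genes. The libraries held 21823084 to 34828131 estimated counts. Egfr mRNA lay between 57.3 and 345 CPM in the 8 KO PSC libraries, against 323, 278, 280 and 419 CPM in the 4 Rosa PSC libraries, and each KO library lay below the Rosa library of its own co-culture (8 of 8). The ranges overlapped because clone D4 stood at 345 CPM, and the mRNA level does not check the loss of the protein. Of the 8 fibroblast markers summed, PSC libraries held 4690 to 15471 CPM and organoid libraries 1.38 to 21.1 CPM, and of the 8 epithelial markers PSC libraries held 34.4 to 160 CPM and organoid libraries 13796 to 19564 CPM. Both fractions thus carried the markers of their label. As a share of the level in the other fraction of the same culture, epithelial markers in PSC libraries stood at 0.0589 to 0.726% and fibroblast markers in organoid libraries at 0 to 0.14%.

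The promoters of the 4 kinases are shown because these genes do the same work on 1 substrate, and among them are the gene with the widest gap between the fractions (Pdk4) and the genes that differed most between organoid lines (Pdk1 and Pdk2). The windows hold the 250 bases before the annotated start, from RefSeq on build GRCm38.p6, which is not the build of the files, and 8 of the 9 genes had such an entry. They lie at chr2:71872974-71873223 on the plus strand (Pdk1, the first of 2 annotated starts), chr11:95041372-95041621 on the minus strand (Pdk2, 1 of 2 starts), chrX:93832151-93832400 on the minus strand (Pdk3) and chr6:5496279-5496528 on the minus strand (Pdk4). Each is written 5′ to 3′ on the strand of the gene, and capitals mark the matches to the motifs described after them.
Pdk1: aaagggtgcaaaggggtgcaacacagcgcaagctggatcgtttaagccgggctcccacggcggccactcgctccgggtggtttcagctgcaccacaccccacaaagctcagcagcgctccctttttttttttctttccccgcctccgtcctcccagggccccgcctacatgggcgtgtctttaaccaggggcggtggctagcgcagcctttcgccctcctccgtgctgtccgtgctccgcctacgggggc
Pdk2: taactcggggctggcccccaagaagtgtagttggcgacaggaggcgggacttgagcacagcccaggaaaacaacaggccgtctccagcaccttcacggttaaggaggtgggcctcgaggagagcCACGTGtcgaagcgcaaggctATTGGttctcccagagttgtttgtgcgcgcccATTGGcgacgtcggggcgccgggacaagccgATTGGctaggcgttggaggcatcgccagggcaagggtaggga
Pdk3: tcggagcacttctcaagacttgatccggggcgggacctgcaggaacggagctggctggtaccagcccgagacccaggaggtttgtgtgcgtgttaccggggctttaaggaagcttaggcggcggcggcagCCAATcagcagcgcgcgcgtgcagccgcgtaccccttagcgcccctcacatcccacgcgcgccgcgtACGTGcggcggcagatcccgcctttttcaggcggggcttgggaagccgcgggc
Pdk4: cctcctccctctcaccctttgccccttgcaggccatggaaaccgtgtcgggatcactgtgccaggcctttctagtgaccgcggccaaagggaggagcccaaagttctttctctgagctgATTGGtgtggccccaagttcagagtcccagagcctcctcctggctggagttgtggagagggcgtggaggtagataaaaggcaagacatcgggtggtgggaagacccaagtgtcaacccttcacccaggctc

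Searched on both strands, the motifs were the forkhead motif GTAAACA, the nuclear receptor motif AGGTCA, the hypoxia response core ACGTG, the E-box CACGTG (which holds that core on both strands), the TATA box TATAAA and the CCAAT box. The Pdk4 window held 1 CCAAT, on its minus strand and 131 bases before the start. The Pdk3 window held 1 CCAAT at 120 bases and 1 ACGTG at 53 bases before the start. The Pdk2 window held the E-box, which brings ACGTG on both strands, and 3 CCAAT on its minus strand, and the Pdk1 window held none of the 6. Of 32851 mouse promoter windows of this length, 33.8% held CCAAT, 16.6% ACGTG, 6.02% CACGTG, 14% AGGTCA, 12.4% TATAAA and 3.17% GTAAACA. A match is a string of letters and not a shown binding site, and regulatory elements outside these windows were not searched.

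The order of the 9 mRNAs by length-corrected level, summed over all transcripts of each gene, was led by the catalytic subunit in both fractions. In the 12 PSC libraries Pdha1 stood at 164 ± 30.7 TPM (SD), Pdk1 at 116 ± 25.4, Pdk3 at 91.2 ± 12.4, Mpc1 at 60 ± 13.5 and Mpc2 at 42.1 ± 8.45 TPM. Pdk4 at 24.1 ± 11.3 TPM and Pdp1 at 22.1 ± 4.17 TPM followed, and Pdk2 at 8.75 ± 2.4 TPM and Pdp2 at 7.49 ± 1.86 TPM were lowest. The neighbours Pdk1 and Pdk3, Pdk4 and Pdp1, and Pdk2 and Pdp2 lay closer together than the larger SD of the pair. In the 11 organoid libraries Pdha1 at 110 ± 16 TPM, Pdk1 at 72.2 ± 24.1 and Mpc1 at 60.2 ± 14.5 TPM led, and the rest ran through Mpc2 at 38.4 ± 4.26, Pdp1 at 14.5 ± 3.79, Pdk3 at 13.7 ± 2.18, Pdp2 at 9.27 ± 1.02 and Pdk2 at 7.49 ± 3.39 to Pdk4 at 0.0557 ± 0.0715 TPM. In organoids the neighbours Pdk1 and Mpc1, Pdp1 and Pdk3, and Pdp2 and Pdk2 lay closer together than the larger SD of the pair. With coding transcripts alone, Pdk1 stood at 31 ± 4.71 TPM in PSCs, below Pdk3 at 91 ± 12.4 TPM. In organoids it then stood at 17.2 ± 5.8 TPM. The place of Pdk1 after Pdha1 thus rests on transcripts not annotated as coding.

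**Figure D1:**
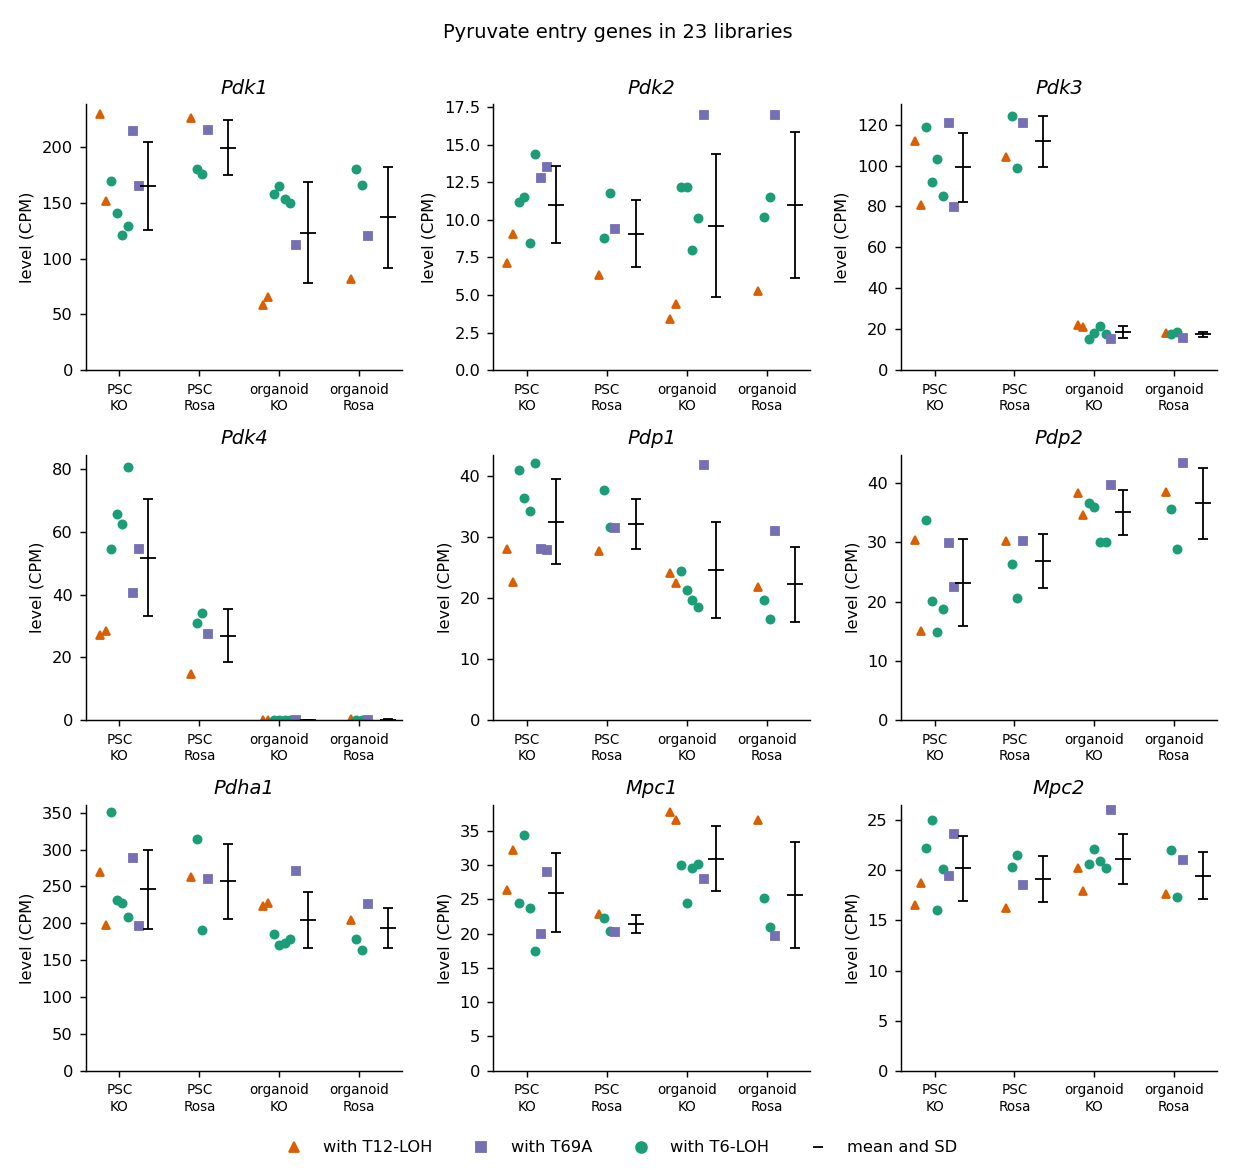
Level (CPM, linear axes starting at 0) of each of the 9 genes in every library, with 1 panel per gene, groups along the x axis, symbols for the organoid line of the culture, and black bars for the mean and SD of each group. Pdk3 (79.8 to 124 CPM in PSCs, 15.2 to 22 in organoids) and Pdk4 (14.9 to 80.4 in PSCs, at most 0.326 in organoids) separate the fractions, and triangles (T12-LOH) are lowest for Pdk4 in PSCs and for Pdk1 and Pdk2 in organoids.

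Pdk4 was higher in Egfr KO PSCs than in the Rosa cells of the same co-culture for all 4 clones and all 3 organoid partners. With T12-LOH, the clones A3 and B4 held 27 and 28.5 CPM, against 14.9 CPM in Rosa cells. With T69A they held 40.5 and 54.4 CPM, against 27.5 CPM in Rosa cells. With T6-LOH they held 54.6 and 65.7 CPM, against 30.9 CPM in PSC4 Rosa cells, and the PSC5 clones C5 and D4 held 62.3 and 80.4 CPM, against 34.2 CPM in PSC5 Rosa cells. Every KO library was above its own Rosa library, by 1.47-fold (A3 with T69A) to 2.35-fold (D4 with T6-LOH), although the pooled ranges overlapped, since A3 and B4 with T12-LOH lay within the range of the Rosa libraries (14.9 to 34.2 CPM). The 8 ratios share 4 Rosa libraries. Across the 12 libraries the mean was 51.7 ± 18.6 CPM in KO PSCs and 26.9 ± 8.43 CPM in Rosa PSCs (SD, n = 8 and 4), and the fitted difference with co-culture as a block was 0.91 on the log2 scale (SE 0.11, 1.89-fold). Because this contrast chose the gene, its p is not given. Among 14107 genes, 4.77% were above their own Rosa library in all 8 KO libraries, 5.22% were below it in all 8, and 1.49% had KO and Rosa ranges that did not overlap. As background, 0.0638% of all genes (0.0213% higher and 0.0425% lower) were past an adjusted p of 0.05 in edgeR's quasi-likelihood test. The fitted difference of Pdk4 lay between 0.87 and 0.96 in the 20 alternatives.

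**Figure D2:**
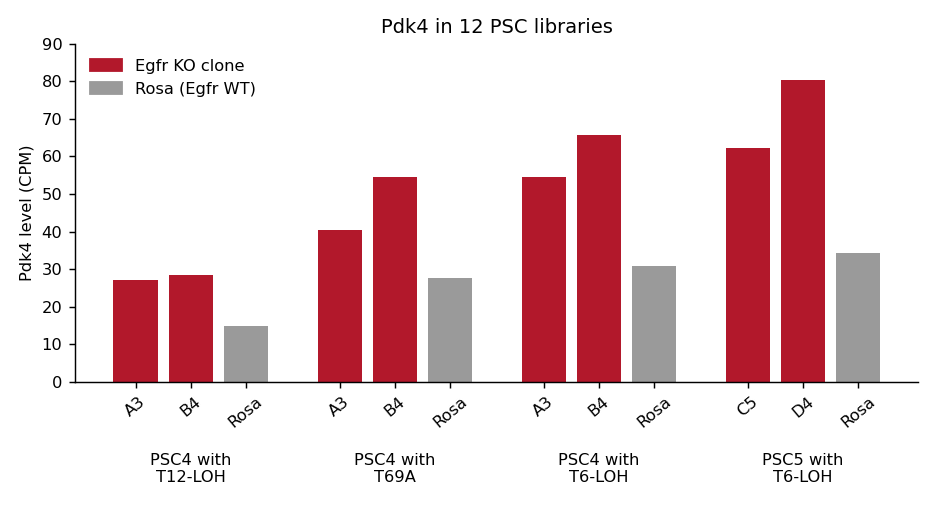
Pdk4 level (CPM, axis from 0) in the 12 PSC libraries, 1 bar per library, grouped by co-culture, with the KO clones (red) left of the Rosa cells (grey) of the same parent. Each red bar stands above the grey bar of its group, and the T12-LOH group is lowest, at 27 and 28.5 CPM in KO clones against 14.9 CPM in Rosa cells.

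The KO difference in Pdk4 was 0.20 larger on the log2 scale in PSC5 than in PSC4 clones, with a 95% interval of -0.40 to 0.80 that holds 0. This fit was added after seeing the data and uses values that chose the gene. It is a description, and its p is not given. Without single libraries the value ran between 0.00 and 0.37. As background, 0 of 14107 genes (0%) passed edgeR's interaction test, and 683 had an unadjusted p under 0.05. The interval allows a PSC5 effect from smaller to clearly larger than that of PSC4, because PSC5 gave 1 library per line.

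Of the other kinases in KO PSCs, Pdk1 and Pdk3 leaned lower and Pdk2 higher, each by less than Pdk4. Pdk1 held 121 to 230 CPM (median 159) in KO PSCs, against 226, 216, 181 and 176 CPM in Rosa PSCs with T12-LOH, T69A, T6-LOH (PSC4) and T6-LOH (PSC5). It was lower than its own Rosa library in 7 of 8 KO libraries, the exception being A3 with T12-LOH at 230 CPM, and the groups overlapped (log2 -0.29, SE 0.13). Pdk3 held 79.8 to 121 CPM (median 97.3) in KO PSCs, against 104, 121, 124 and 98.6 CPM in Rosa PSCs in the same order of co-cultures. It was lower in 6 of 8 KO libraries (log2 -0.18, SE 0.15), and Pdk2, at 7.13 to 14.4 CPM (median 11.4) in KO PSCs against 6.32 to 11.8 CPM in Rosa PSCs, was higher in 7 of 8 (log2 0.28, SE 0.16). Neither gene separated the groups.

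For the phosphatases, the subunit and the carrier, the fitted differences from Rosa PSCs lay between -0.23 and 0.25 log2 units, while single KO libraries reached -0.98 (Pdp2, B4 with T12-LOH) and 0.62 (Mpc1, B4 with T6-LOH) against their own Rosa library. Pdp1, the calcium-dependent phosphatase, averaged 32.5 ± 6.99 CPM in KO and 32.1 ± 4.13 CPM in Rosa PSCs (log2 -0.01, SE 0.11). Pdp2 averaged 23.2 ± 7.31 CPM in KO and 26.8 ± 4.54 CPM in Rosa PSCs (log2 -0.23, SE 0.21). Pdha1 averaged 246 ± 53.6 CPM in KO and 257 ± 50.4 CPM in Rosa PSCs (log2 -0.05, SE 0.16). For Pdp2 the values followed the clone, with A3 at 29.9 to 33.8 CPM and B4 at 15.1 to 22.4 CPM. Mpc1 averaged 25.9 ± 5.77 CPM in KO and 21.4 ± 1.32 CPM in Rosa PSCs (log2 0.25, SE 0.14, higher in 6 of 8), and Mpc2 averaged 20.2 ± 3.24 CPM in KO and 19.1 ± 2.31 CPM in Rosa PSCs (log2 0.06, SE 0.11). All 9 genes passed the filter on low counts, and their median difference was -0.01 against 0.00 over all genes.

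In KO PSCs 0.0638% of all 14107 genes passed edgeR's test, so a count of 0 is not read as a result about a list. Outside the gate, no listed gene passed this test. That holds for 0 of 5 other subunits of the complex, 0 of 4 genes of lipoate supply (the cofactor of the complex), 0 of 8 genes for other fates of pyruvate, 0 of 3 tested transporters of lactate and pyruvate, 0 of 5 branched-chain relatives, 0 of 16 citrate cycle genes and 0 of 12 genes of fatty acid oxidation. It also holds for 0 of 12 regulators known to act on Pdk4 and for 0 of 11 of their other targets tested. The median log2 difference of the regulators was 0.09 and that of their other targets -0.03. Among the hypoxia-inducible genes 0 of 12 passed, with a median of -0.30, and unadjusted p-values under 0.05 were held by 1937 of all 14107 genes. DESeq2 called 599 of all genes in this comparison, and its calls were not split by list. Fibroblast markers summed to 4690 to 15471 CPM in KO PSCs and 9584 to 14903 CPM in Rosa PSCs, with 0 of 8 past the threshold, and their part in the Pdk4 difference was not tested.

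The likeness of other genes to Pdk4 was read as Pearson's correlation of log2(CPM + 0.5) over the 12 PSC libraries, among 11225 protein-coding genes. The libraries share lines and partners, so this is a description. Glce (0.95, a glucuronyl epimerase of heparan sulfate synthesis), Mrvi1 (0.95, a protein known from nitric oxide signalling in smooth muscle), Eif3m (0.93, a translation initiation factor), Ldlrad3 (0.93) and Rab1a (0.92, a GTPase of transport from the endoplasmic reticulum to the Golgi) were nearest. At the other end stood Gja1 (-0.93, the gap junction protein connexin 43), Ptgfr (-0.93, the prostaglandin F receptor) and Pold1 (-0.92, a DNA polymerase subunit). Mrvi1 averaged 9.02 CPM in KO and 1.1 CPM in Rosa PSCs, and Glce 81.3 CPM in KO and 64.5 CPM in Rosa PSCs. Gja1 averaged 152 CPM in KO and 245 CPM in Rosa PSCs, and Ptgfr 7.13 CPM in KO and 20.4 CPM in Rosa PSCs. The rest differed by less, with KO and Rosa means of 92.6 and 83.3 CPM (Eif3m) and 41.2 and 30.8 CPM (Ldlrad3). Rab1a averaged 201 CPM in KO and 182 CPM in Rosa PSCs, and Pold1 79.9 CPM in KO and 89.4 CPM in Rosa PSCs. Since Pdk4 itself differs between KO and Rosa, such gaps follow in part from the ranking.

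A comparison outside the choice of genes is that of the organoid partner, since the same 3 PSC4 lines were grown with each organoid line. Pdk4 was lower in PSC4 cells grown with T12-LOH than with T6-LOH, to a like degree in KO and Rosa cells. With T12-LOH, A3, B4 and Rosa cells held 27, 28.5 and 14.9 CPM, against 54.6, 65.7 and 30.9 CPM with T6-LOH. The groups did not overlap, and the level with T12-LOH was 0.495-fold (A3), 0.434-fold (B4) and 0.483-fold (Rosa) that of the same line with T6-LOH. For comparisons of partners, clones, parents and organoid lines, the share of all genes without overlap was not counted. Lack of overlap is therefore a description there. In the fit of PSC line and organoid line, Pdk4 fell by 1.07 on the log2 scale (SE 0.08, edgeR quasi-likelihood adjusted p = 0.000405), in a comparison in which 17.6% of 14107 genes passed. With T69A the 3 lines held 40.5, 54.4 and 27.5 CPM, between the other partners in each line, and the difference from T6-LOH was -0.31 (95% interval -0.52 to -0.10, adjusted p = 0.0632), which did not pass. The culture and its partner cannot be told apart, since each line was grown once with each partner.

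Of the 9 genes, 6 passed in PSC4 cells with T12-LOH against T6-LOH, 1 higher and 5 lower, beside 17.6% of all genes (8.19% higher and 9.43% lower). Pdp1 held 28, 22.6 and 27.7 CPM in A3, B4 and Rosa cells with T12-LOH, against 40.9, 36.4 and 37.6 CPM with T6-LOH, without overlap (log2 -0.54, SE 0.08, edgeR adjusted p = 0.00473). Pdk1 held 230, 152 and 226 CPM in these lines with T12-LOH, against 170, 141 and 181 CPM with T6-LOH, higher within each line although the ranges overlapped (log2 0.31, SE 0.07, adjusted p = 0.0199). Pdk2 fell by 0.47 (SE 0.11, adjusted p = 0.0229), Mpc2 by 0.37 (SE 0.07, adjusted p = 0.0126) and Pdha1 by 0.26 (SE 0.06, adjusted p = 0.0183) on the log2 scale. The kinases thus moved in both directions, with Pdk4 and Pdk2 lower and Pdk1 higher, and Pdk3 at -0.15 (adjusted p = 0.14) did not pass. With T69A against T6-LOH, 2 of 9 passed, both lower, beside 3.96% of all genes (1.51% lower), namely Pdp1 at -0.42 (SE 0.08, adjusted p = 0.0394) and Pdha1 at -0.28 (SE 0.06, adjusted p = 0.0406). Both counts hang on single libraries. Without Rosa library 20 or KO library 21 (T6-LOH) or KO library 24 (T12-LOH), 2 of 9 passed for T12-LOH, and 0 of 9 passed for T69A without any 1 of the libraries 17 to 22 and 24 and 3 of 9 without KO library 25. Pdk4 and Pdp1 passed for T12-LOH without each of the 12 libraries in turn.

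Around the gate, a few listed genes passed in PSC4 cells with T12-LOH against T6-LOH, beside 17.6% of all genes (8.19% higher and 9.43% lower). Counts near that share are not read as particular to a list. Of the 12 regulators known to act on Pdk4, 1 passed higher and 2 lower by edgeR. Ppard (log2 0.45, adjusted p = 0.00473) rose, and Klf9 (-0.50, adjusted p = 0.00845) and Foxo1 (-0.84, adjusted p = 0.0143) fell. The part of these regulators in the Pdk4 difference was not tested. Of 11 other targets of these regulators, 1 passed, the glucocorticoid-induced gene Tsc22d3 (-0.74, adjusted p = 0.0119). Of 12 hypoxia-inducible genes 4 passed, with Ankrd37 (1.41, adjusted p = 0.00214), Slc2a1 (0.67, the glucose transporter, adjusted p = 0.00302) and Hif1a (0.91, adjusted p = 0.0126) higher and Pfkfb3 (-0.79, adjusted p = 0.0333) lower. The lactate and pyruvate transporter Slc16a1 rose by 1.01 (adjusted p = 0.00507). Other genes passed singly, with Pcx (0.37, pyruvate carboxylase, adjusted p = 0.0177) and Gpt (0.43, adjusted p = 0.0389) among 8 other fates of pyruvate and Suclg2 (0.30, adjusted p = 0.0119) among 16 citrate cycle genes. In fatty acid oxidation, Cpt1a (0.49, adjusted p = 0.00578) was higher and Hadhb (-0.22, adjusted p = 0.0293) lower of 12. With T69A, 5 of 12 hypoxia-inducible genes were higher by edgeR, beside 3.96% of all genes past the threshold (2.45% higher). Among the 5 were Ankrd37 (1.44, adjusted p = 0.0179), Vegfa (0.51, adjusted p = 0.0228) and Egln3 (1.02, adjusted p = 0.0237), while Pdk1 stood at 0.25 (adjusted p = 0.0757). Epithelial markers in the PSC libraries stood at 0.105, 0.246 and 0.134% of the organoid level with T12-LOH and at 0.694 and 0.726% with T69A, against 0.144, 0.159 and 0.225% with T6-LOH and PSC4 lines. Of the 8 epithelial markers 4 were past the threshold and higher in PSC4 cells with T69A, and 1 was lower with T12-LOH. Of the 8 fibroblast markers 2 were higher and 4 lower with T12-LOH, and 0 passed with T69A. The part of these markers in the differences was not tested.

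**Figure D3:**
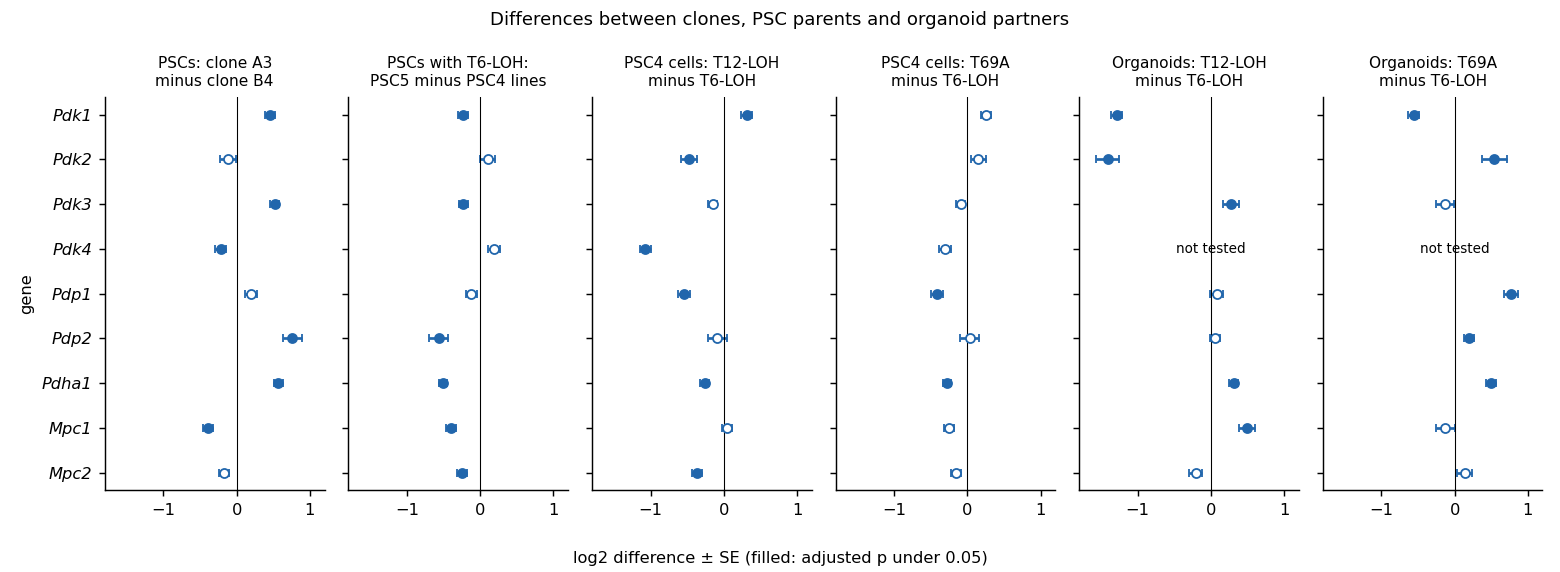
Fitted log2 difference with its SE for each gene (rows) in 6 comparisons outside the choice of genes (panels), with filled points for an adjusted p under 0.05. Pdk4 in PSC4 cells with T12-LOH (-1.07) and Pdk1 and Pdk2 in T12-LOH organoids (-1.29 and -1.41) lie farthest left, and Pdp1 in T69A organoids (0.77) and Pdp2 in clone A3 against B4 (0.76) lie farthest right.

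Clones A3 and B4 carry the same label and differed in many genes, some of this gate among them. Over the 3 shared partners, 6 of the 9 genes passed, 4 higher and 2 lower in A3, against 48.8% of all genes (25.5% higher and 23.3% lower). With so many genes called, the count is not read as particular to this gate. A3 held more Pdp2 (30.4, 29.9 and 33.8 CPM with T12-LOH, T69A and T6-LOH) than B4 (15.1, 22.4 and 20.1 CPM), without overlap (log2 0.76, SE 0.13, edgeR adjusted p = 0.00276). A3 held more Pdk3 (112, 121 and 119 CPM) than B4 (80.5, 79.8 and 91.8 CPM), again without overlap (log2 0.52, SE 0.06, adjusted p = 0.000468). Pdha1 (log2 0.57, SE 0.06, adjusted p = 0.000181) and Pdk1 (0.45, SE 0.07, adjusted p = 0.00127) were also higher in A3. Mpc1 was lower, with 26.4, 20 and 24.5 CPM in A3 against 32.1, 28.9 and 34.4 CPM in B4 (log2 -0.39, SE 0.07, adjusted p = 0.00344). Pdk4 was lower in A3 by 0.22 (SE 0.08, adjusted p = 0.0451), and this call was lost in 8 of 17 alternatives. These p-values rest on the spread between repeat libraries of the PSC4 lines (A3, B4 and Rosa), so they compare A3 with B4 and nothing wider.

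PSC5 cells were compared with PSC4 cells in T6-LOH co-cultures, with the mean of 3 lines each. The p-values rest on the spread between repeat libraries of the PSC4 lines. They do not measure the spread between lines of 1 parent, so they compare these lines and nothing wider. Of the 9 genes 6 passed, all lower in PSC5, against 27.2% of all genes (14.6% lower). Pdha1 held 227, 209 and 191 CPM in C5, D4 and PSC5 Rosa cells, against 351, 231 and 314 CPM in A3, B4 and PSC4 Rosa cells with T6-LOH, without overlap (log2 -0.51, SE 0.06, edgeR adjusted p = 0.00133). Pdp2 was lower by 0.57 (SE 0.13, adjusted p = 0.0201) and Mpc1 by 0.40 (SE 0.07, adjusted p = 0.00869), but both overlapped. With T6-LOH, Pdp2 held 14.9 to 20.6 CPM in PSC5 and 20.1 to 33.8 CPM in PSC4 lines. Mpc1 held 17.5 to 23.7 CPM in PSC5 and 22.2 to 34.4 CPM in PSC4 lines. Pdk1 at -0.24 (adjusted p = 0.0384), Pdk3 at -0.23 (adjusted p = 0.0321) and Mpc2 at -0.25 (adjusted p = 0.0347) passed in no more than 5 of 13 alternatives each. Pdk4, at 62.3, 80.4 and 34.2 CPM in PSC5 lines against 54.6, 65.7 and 30.9 CPM in PSC4 lines, differed by 0.19 (95% interval -0.02 to 0.40, adjusted p = 0.0958). PSC5 gave 1 library per line, which is assumed to vary like the others, and the count was 2 of 9 without KO library 21 or 22 and 3 of 9 without Rosa library 17 or 20 or KO library 18 or 24.

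In the organoids, Pdk1 was lower beside KO PSCs in every pair. It held 58.4 and 65.4 CPM in T12-LOH organoids grown with A3 and B4, against 81.6 CPM with Rosa cells, and 112 CPM in T69A organoids with B4, against 120 CPM with Rosa cells. In T6-LOH organoids it held 158 and 165 CPM with A3 and B4, against 181 CPM with PSC4 Rosa cells, and 154 and 150 CPM with C5 and D4, against 166 CPM with PSC5 Rosa cells. All 7 KO libraries lay below their own Rosa library, by 0.11 to 0.48 on the log2 scale, and the pooled groups overlapped because the organoid lines differ more than that. The fitted difference was -0.21 (SE 0.06). As background, 10.3% of 13939 genes (4.28% higher and 6.05% lower) were past an adjusted p of 0.05. Of all genes, 9.79% were below their own Rosa library in all 7 and 0.631% had ranges that did not overlap. Of the 9 genes, 8 passed the filter on low counts in organoids, and Pdk4 did not.

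Pdp1 went the other way, above its own Rosa library in 7 of 7 KO organoid libraries (18.5 to 41.8 CPM, median 22.5, against 21.8, 30.9, 19.7 and 16.6 CPM in Rosa organoids of T12-LOH, T69A, T6-LOH with PSC4 and T6-LOH with PSC5). Its difference was 0.22 (SE 0.07), the groups overlapped, and 8.67% of genes were above in all 7. Mpc1 (0.26, SE 0.09), Mpc2 (0.14, SE 0.07) and Pdha1 (0.11, SE 0.05) were each above in 6 of 7. Pdk2 (-0.14, SE 0.12), Pdk3 (0.04, SE 0.08) and Pdp2 (-0.03, SE 0.05) moved by little more than their SE or less. The 8 genes that passed the filter had a median difference of 0.07, against -0.01 over all genes.

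Around them, the lists were chosen with earlier results of these data known, so their counts are a description. The share of all genes past the threshold was 10.3% (4.28% higher and 6.05% lower). These 1441 calls became 0 with no co-culture block and 189 in PSC4 co-cultures only. Of 13 hypoxia-inducible genes, 4 were past the threshold in organoids beside KO PSCs, all lower. The median of the 13 was -0.27 against -0.01 over all genes. Bnip3 fell by 0.60 (a mitophagy receptor, edgeR adjusted p = 0.0086), Vegfa by 0.67 (adjusted p = 0.00344), and the phosphofructokinase regulators Pfkfb4 by 0.33 (adjusted p = 0.0284) and Pfkfb3 by 0.27 (adjusted p = 0.0459). Of 3 tested transporters of lactate and pyruvate, Slc16a3 (-0.39, adjusted p = 0.0145) and its chaperone Bsg (-0.20, adjusted p = 0.0366) fell. In the citrate cycle 3 of 16 rose, Suclg2 (0.24, adjusted p = 0.0168), Suclg1 (0.19, adjusted p = 0.0275) and Fh1 (0.19, adjusted p = 0.0338), and none fell. Of 12 genes of fatty acid oxidation, Cpt1a (0.25, adjusted p = 0.0229) and Hadhb (0.20, adjusted p = 0.0269) rose. Among other fates of pyruvate, Me2 (0.28, adjusted p = 0.0284) and Pcx (0.27, adjusted p = 0.0443) rose and Gpt2 (-0.33, adjusted p = 0.0257) fell, of 7 tested, and Dbt (0.35, adjusted p = 0.00365) was the 1 of 5 branched-chain relatives that passed. Of the 5 other subunits of the complex 0 passed by edgeR, and of the 4 lipoate genes 0, where 4054 of all genes had an unadjusted p under 0.05. Of the regulators and their targets, Foxo3 (-0.41, adjusted p = 0.0147) and Plin2 (-0.54, adjusted p = 0.00575) fell. Fibroblast markers summed to 1.38 to 5.55 CPM in organoids beside KO PSCs and 4.23 to 21.1 CPM in organoids beside Rosa PSCs, with Col1a1 (-1.45, adjusted p = 0.0128) and Col3a1 (-2.74, adjusted p = 0.0355) lower, and the macrophage marker Cd68 fell by 0.57 (adjusted p = 0.00215). Their part in these differences was not tested, and in sorted bulk RNA fewer cells of a type and less RNA per cell cannot be told apart.

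The organoid lines differed from each other in the kinases, a comparison that the choice of genes did not use. Pdk1 held 58.4, 65.4 and 81.6 CPM in T12-LOH organoids grown with A3, B4 and Rosa cells, against 158, 165 and 181 CPM in T6-LOH organoids grown with the same cells, without overlap. It fell by 1.29 on the log2 scale (SE 0.07, edgeR adjusted p = 1.54e-08). Pdk2 held 3.42, 4.38 and 5.25 CPM in T12-LOH organoids, against 12.2, 12.2 and 10.2 CPM in T6-LOH organoids, and fell by 1.41 (SE 0.16, adjusted p = 8e-06). Mpc1 (0.49, SE 0.11, adjusted p = 0.00202), Pdha1 (0.31, SE 0.06, adjusted p = 0.000708) and Pdk3 (0.27, SE 0.11, adjusted p = 0.0381) were higher in T12-LOH. These are 5 of 8 genes tested, beside 63.1% of all genes (31.4% higher and 31.7% lower), so the share called is near the background. The Pdk3 call was lost in 6 of 15 alternatives, and with Rosa cells Pdk3 held 18.3 CPM in T12-LOH against 17.8 CPM in T6-LOH organoids. Immune markers were lower in T12-LOH organoids in 3 of 3 tested, and their part was not tested.

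In T69A organoids against T6-LOH, 5 of 8 genes were past the threshold beside 55.3% of all genes (27.6% higher and 27.7% lower), again near the background. Pdp1 held 41.8 and 30.9 CPM in T69A organoids grown with B4 and Rosa cells, against 21.3 and 19.7 CPM in T6-LOH organoids grown with the same cells (log2 0.77, SE 0.10, edgeR adjusted p = 2.33e-05). Pdha1 (0.50, SE 0.07, adjusted p = 4.73e-05), Pdk2 (0.54, SE 0.17, adjusted p = 0.016) and Pdp2 (0.20, SE 0.07, adjusted p = 0.0333) were higher, and Pdk1 was lower (-0.56, SE 0.08, adjusted p = 8.81e-05). Pdk2 thus stood on opposite sides of T6-LOH in the other lines, lower in T12-LOH and higher in T69A, whereas Pdk1 was lower in both. T69A rests on 2 organoid libraries, and without KO library 4 or Rosa library 6 the count was 3 of 8. The Pdp2 call was lost in 7 of 15 alternatives and the Pdk2 call in 2 of 15. Fibroblast markers stood at 0.0425 and 0.14% of the PSC level in these 2 libraries and 3 of the 4 tested were higher than in T6-LOH organoids, and 2 of 3 immune markers were lower, with their part not tested. Between T6-LOH organoids grown with PSC5 and with PSC4 lines, 0 of 8 genes passed by edgeR, beside 0.545% of all genes and 2242 genes with an unadjusted p under 0.05. By DESeq2 1 of 8 passed, and the largest of the 8 differences by edgeR was -0.28 for Pdp2 (95% interval -0.44 to -0.12, adjusted p = 0.077).

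**Figure D4:**
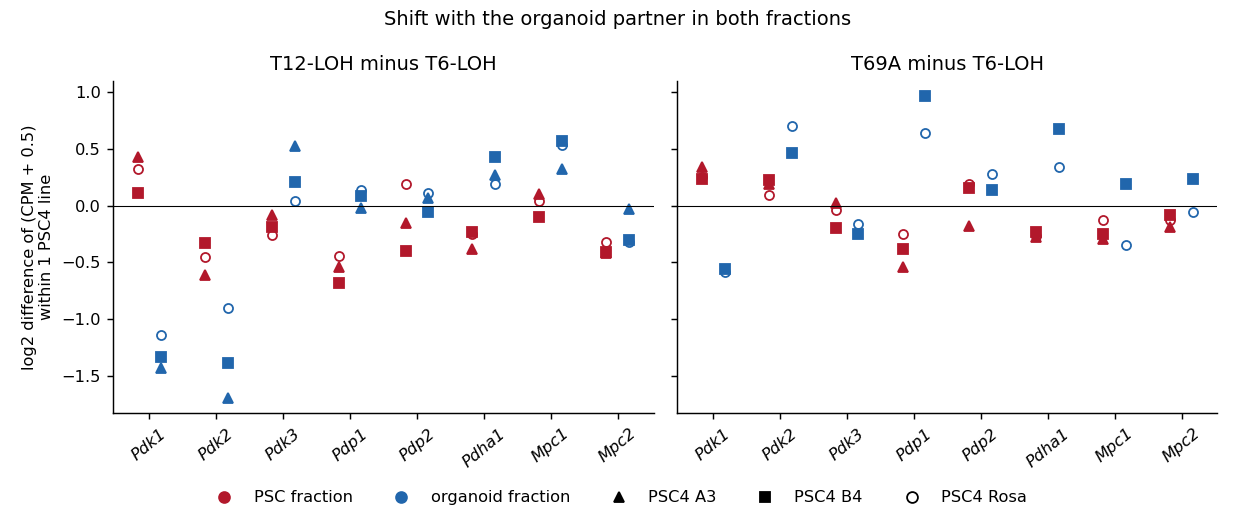
Log2 difference of (CPM + 0.5) for T12-LOH (left) and T69A (right) minus T6-LOH cultures within each PSC4 line, for 8 genes, with the PSC fraction (red) left of the organoid fraction (blue) and symbols for the PSC line. Pdk1 is above 0 in PSCs (0.11 to 0.43 with T12-LOH) and below 0 in organoids (-1.43 to -1.14) of the same cultures. Pdk4 is left out because organoids held at most 9 reads of it.

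Set side by side in the same cultures, Pdk1 stood on opposite sides in the fractions. In PSC4 cells its level with T12-LOH was 1.35-fold, 1.08-fold and 1.25-fold that with T6-LOH in the A3, B4 and Rosa cultures, and in the organoids of these cultures it was 0.37-fold, 0.396-fold and 0.452-fold. Pdha1 did the reverse, at 0.77-fold, 0.854-fold and 0.838-fold in PSCs and 1.21-fold, 1.34-fold and 1.14-fold in organoids. Pdk2 was lower with T12-LOH in both fractions of each culture. The difference between fractions was not tested.

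Pdk4 and Pdk3 set the fractions apart. Pdk4 gave 13852 estimated counts over the 12 PSC libraries and 24 over the 11 organoid libraries, a ratio of 572 after scaling to library totals (95% Poisson interval 384 to 892, counting error only). In 9 of the 11 organoid libraries it had 3 counts or fewer, which is the limit that counting allows here, and 2 of those were under 1 count. The highest organoid values, 0.326 CPM in T12-LOH and 0.272 CPM in T69A, came from libraries grown with Rosa cells whose fibroblast markers stood at 0.0688 and 0.14% of the PSC level. Pdk4 in these libraries stood at 2.18 and 0.991% of the level in the PSCs of the same culture, and the part of PSC RNA in it was not tested. Pdk3 held 79.8 to 124 CPM (median 103) in PSCs, against 15.2 to 22 CPM (median 18.1) in organoids, with no overlap and 11 of 11 cultures higher in PSCs. Its fitted difference was 2.48 (SE 0.10, 5.56-fold), in a comparison in which 75.3% of 14058 genes passed and 40.1% did not overlap. Pdk3 in organoids stood at 12.7 to 26.1% of the PSC level of the same culture, where the fibroblast markers stood at 0 to 0.14%.

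The other genes differed by less than 1 log2 unit between the fractions. Pdk1 averaged 177 ± 37.8 CPM in PSCs and 128 ± 43.5 CPM in organoids (log2 0.49, SE 0.22, higher in PSCs in 8 of 11 cultures), and Pdk2 averaged 10.4 ± 2.55 CPM in PSCs and 10.1 ± 4.6 CPM in organoids (0.12, SE 0.17). The phosphatases went apart. Pdp1 averaged 32.4 ± 5.98 CPM in PSCs and 23.8 ± 7.07 CPM in organoids (0.49, SE 0.15, 10 of 11), and Pdp2 averaged 24.4 ± 6.55 CPM in PSCs and 35.6 ± 4.49 CPM in organoids (-0.61, SE 0.10, lower in PSCs in 11 of 11). Pdha1 (0.29, SE 0.11) leaned to PSCs in 9 of 11 cultures. The carrier subunits averaged 24.4 CPM (Mpc1) and 19.8 CPM (Mpc2) in PSCs and 29 CPM (Mpc1) and 20.5 CPM (Mpc2) in organoids, with differences of -0.22 (SE 0.11) and -0.05 (SE 0.08). As background, 37.3% of all genes were past the threshold and higher in PSCs and 38% lower.

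The rest of the complex leaned to the organoids, in lists chosen with earlier results known and beside 38% of all genes lower in PSCs. Of 5 subunits and regulators outside the 9 genes, 4 were lower in PSCs, among them Dlat (-0.78, the acetyltransferase core, edgeR adjusted p = 7.17e-08), Pdhb (-0.66, the partner of Pdha1, adjusted p = 3.18e-06) and Pdhx (-0.39, adjusted p = 0.000232), and Pdpr (1.16, the regulatory subunit of the phosphatase, adjusted p = 2.93e-06) was higher. All 4 genes of lipoate supply tested were lower in PSCs by edgeR, from Lipt2 (-1.88, adjusted p = 5.33e-06) to Lias (-0.38, adjusted p = 0.000295). In the citrate cycle 13 of 16 were lower and 1 higher, with a median of -0.58 against -0.03 over all genes, and in fatty acid oxidation 7 of 12 were lower and 1 higher. Of 11 regulators of Pdk4 tested, 4 were higher in PSCs, among them Foxo3 (1.41, adjusted p = 2.82e-08) and Foxo4 (1.29, adjusted p = 1.11e-08), and 5 were lower, among them Pparg (-3.16, adjusted p = 7.15e-10) and Ppard (-1.42, adjusted p = 9.47e-10). Slc16a1 was higher in PSCs (1.06, adjusted p = 1.68e-05) and Slc16a3 lower (-2.63, adjusted p = 0.000295), with Bsg at 0.44 (adjusted p = 1.54e-05).

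The mix of the 4 kinase mRNAs differed between the fractions accordingly. By TPM, Pdk1 made up 48 ± 6.92% of the 4 in PSCs and 75.7 ± 6.57% in organoids (SD, n = 12 and 11), and Pdk3 made up 38 ± 3.51% in PSCs and 16.3 ± 7.48% in organoids. Pdk4 made up 10.3 ± 5.43% in PSCs and 0.0662 ± 0.0821% in organoids, and Pdk2 3.71 ± 1.15% in PSCs and 7.93 ± 3.19% in organoids. Within PSCs the Pdk4 share was 12.4 ± 5.44% in KO cells and 6.11 ± 1.89% in Rosa cells. Much of Pdk1 lay on a transcript not annotated as coding, and with coding transcripts alone the order in PSCs changed. Then Pdk3 led in PSCs with 59.1 ± 5.69%, ahead of Pdk1 with 20.3 ± 3.65%, Pdk4 with 15.2 ± 6.88% and Pdk2 with 5.4 ± 1.36%. In organoids Pdk1 (44.5 ± 8.37%) and Pdk3 (37.7 ± 11.2%) then lay within their SD of each other. The share of Pdk4 was then 18.1 ± 6.58% in KO PSCs and 9.44 ± 2.32% in Rosa PSCs.

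**Figure D5:**
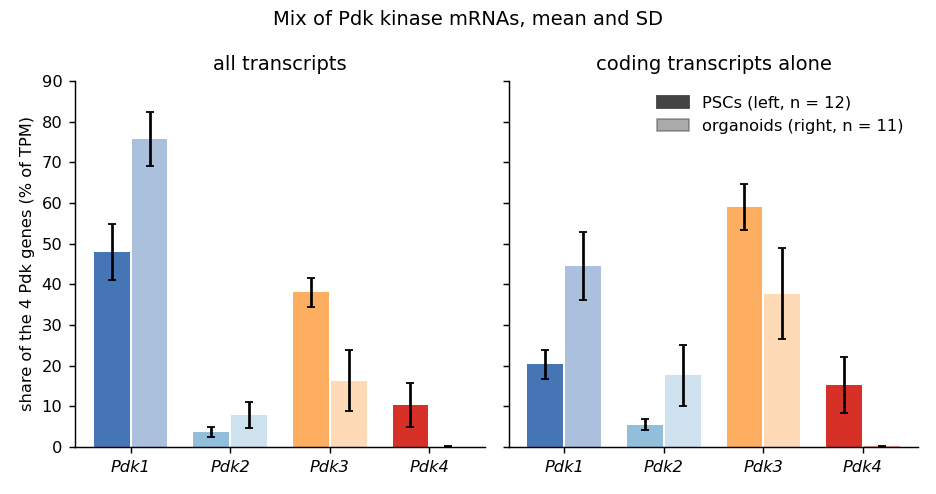
Share of each kinase in the summed TPM of the 4 Pdk genes, mean and SD over libraries, from all transcripts (left) and from coding transcripts alone (right), with PSCs (darker bars) left of organoids (lighter bars). In PSCs Pdk1 leads with all transcripts (48%) and Pdk3 with coding transcripts (59.1%), and Pdk4 is near 0 in organoids in both.

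The split of each gene over its transcripts was not used by the choice of genes, which summed them. Of Pdk1 reads, 51.8% in PSCs and 46.2% in organoids were assigned to the coding Pdk1-201, over 11 cultures. The difference was 5.59 ± 5.89 percentage points (SD), higher in PSCs in 9 of 11 cultures, with an exact sign-flip permutation p of 0.0146 (2-sided, smallest possible 0.000977) and an adjusted p of 0.103 over the 7 genes tested. Most of the rest lay on Pdk1-208, a processed transcript of 2972 bases, with 39.8% in PSCs and 45% in organoids. Pdp1 was spread over 6 coding transcripts, and the tested one of 2525 bases held 28.9% in PSCs and 39.9% in organoids with a wide spread (2.53 to 47% in PSCs and 11.2 to 58.3% in organoids, adjusted p = 0.217 by the same exact test). Mpc1-208 held 94.8% in PSCs and 94.5% in organoids, and Mpc2-201 held 89.4% in PSCs and 86.4% in organoids. Pdk2, Pdk3 and Pdha1 lay at 98.4% or more on 1 coding transcript in both fractions, Pdp2 has 1 transcript, and Pdk4 had too few organoid reads for a share. By this test 0 of 7 genes passed after adjustment and 1 had an unadjusted p under 0.05.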

How the data were processed

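Sorted co-cultures were lysed in TRIzol and their RNA sequenced (labels' protocols). Each deposited table holds estimated counts and TPM values for 117135 transcripts of 1 library (23 in all), made by the authors with Salmon 1.9.0 on GRCm39 (mm39), per the submitters' processing notes. Both were summed over transcripts of a gene, with names from GENCODE M21 (99% of transcripts matched, and the unmatched 0.364 to 0.443% of reads were set aside). The sources used here do not give strandedness, so overlapping antisense reads cannot be told apart.

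Rounded counts were tested with edgeR 4.0.16 (quasi-likelihood, TMM, filterByExpr, Benjamini-Hochberg at 0.05 over all genes tested) in R 4.3.3. KO against Rosa had the co-culture as block, line and partner contrasts had PSC line and organoid line as terms, and fractions were compared within cultures. CPM shared 1 TMM scale. Log2 values of single libraries used CPM + 0.5. Intervals are 95% and cover the spread between libraries (or, where said, counting error). Alternatives were DESeq2 1.42.0, RLE size factors, no low-count filter, other blocks, single libraries left out and, chosen after seeing the data, coding transcripts alone. The comparison of KO effects between PSC parents was also added after seeing the data. The tests were tried on simulated data. Transcript shares were compared by exact sign-flip permutation (Python 3.11.15 with numpy 2.4.6). Replicates are separate libraries. Nothing says they came from separate animals, so p-values measure the spread between these libraries. Between libraries of a group, counts differed beyond sampling noise (lowest chi-square per degree of freedom 10.2). Members, lists and comparisons were chosen with earlier results of these data known. In each list and comparison, up to 4 genes with the smallest p were named, and of all genes the 5 most and 3 least like Pdk4.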

Additional observations from a re-analysis of the deposited data

Results flagged for a closer look

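Pdp1 stood at 41.8 CPM in T69A organoids grown with clone B4 (library 4), far from the other 6 organoid libraries with KO cells, which held 18.5 to 24.4 CPM. The gap was 0.745 of the range of the group. It is the only T69A library among those 7, and the T69A organoid library with Rosa cells held 30.9 CPM. Of 34 groups looked at, 1 held such a value, which is no more than the about 1 in 20 that chance gives. That rate does not allow for organoid lines that differ within a group.

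In the same PSC4 co-cultures, some genes shifted one way in every PSC line and the other way in every organoid library. For Pdk1, T12-LOH against T6-LOH, the mean log2 shift was 0.29 in PSCs and -1.30 in organoids, a gap of 1.59, and for T69A against T6-LOH it was 0.27 in PSCs and -0.57 in organoids, a gap of 0.85. For Pdha1 the shifts were -0.29 in PSCs and 0.30 in organoids with T12-LOH (gap -0.58), and -0.26 in PSCs and 0.51 in organoids with T69A (gap -0.77). For Pdp1 with T69A they were -0.39 in PSCs and 0.80 in organoids (gap -1.19), and for Pdk3 with T12-LOH -0.18 in PSCs and 0.25 in organoids (gap -0.43). The difference was not tested in any of these.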

How the results depend on the processing

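Pairing by library number was not possible, because these numbers are unique in the labels and the groups share none to block on. The culture and the co-culture, built from the line names in the labels, are blocks in the fits as reported. KO against Rosa in PSCs called 9 genes as reported, 599 with DESeq2, 23 with no filter on low counts, 4 with no co-culture block, 38 in PSC4 co-cultures only, 0 without the T69A co-culture and 0 with counts summed per PSC line. Leaving out single libraries gave 0 (Rosa 20, Rosa 23 or KO 21) to 51 (Rosa 26) genes. In organoids the 1441 calls became 0 with no co-culture block, 445 without the T69A co-culture and 189 in PSC4 co-cultures only, and 214 (without Rosa 14) to 1910 (without Rosa 6) when single libraries were left out. Of the 9 genes described, 2 to 6 passed for PSC5 against PSC4 lines without single libraries, 3 with DESeq2 and 3 with no filter. For PSC4 cells, 2 to 6 passed with T12-LOH and 0 to 3 with T69A, each without single libraries. For T69A organoids 3 to 5 passed. For T6-LOH organoids with PSC5 against PSC4 lines, DESeq2 called 1. The fraction difference of Pdk4 was 7.48 in Rosa libraries only and 10.16 in KO libraries only. The cause was not tested for any of these. Pdk4 with T12-LOH against T6-LOH passed in 16 of 16 alternatives, and Pdk1 and Pdk2 in T12-LOH organoids in 15 of 15. No value changed sign past a threshold. Depth limits Pdk4 in organoids, at 9 counts or fewer per library.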
